A study of Mus musculus with 2 samples.

Results

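A fracture callus contains fibroblast-like stromal cells besides cartilage and bone cells. The cells described here are fibroblasts of the mouse femoral callus that carried RNA for Cxcl5, Ptx3 and Ereg, and they are called inflammatory fibroblasts. They were selected on measured single-cell RNA values. A cell needed at least 200 genes, at most 20% mitochondrial UMIs (unique molecular identifiers, 1 per captured RNA molecule) and at least 2000 UMIs. Per 10000 UMIs of the cell, it then needed at least 50 UMIs of Col1a1 and Col3a1 together, under 50 of Col2a1, under 20 of the osteoblast genes Ibsp, Alpl, Bglap, Bglap2 and Ifitm5, under 5 of the tendon genes Tnmd and Thbs4, under 50 of the immune genes S100a8, S100a9, C1qa, C1qb and C1qc, and at least 5 of Cxcl5, Ptx3 and Ereg. In the library titled MGJ, 431 of 14295 cells met the rule. In the library titled MGJ2, 1 of 8009 cells did.

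Both libraries were made from callus of wild-type mice, given in the study's methods as adult male C57BL/6J animals, after a femoral fracture stabilised by a needle in the medullary cavity. The series describes callus taken from 5 mice at 10 days post fracture (dpf) and from 5 mice at 20 dpf. Neither the labels nor the tables say which library came from which day or which cell from which mouse, so each library was treated as 1 sample of unknown day and no difference between days or mice could be measured. All cells went through enzyme digestion of the callus before capture. Library MGJ held 135304426 UMIs with a median of 5026 per cell, against 61130834 and 4952 in MGJ2. The labels state a target of 5000 cells, and 19 cell barcodes occurred in both libraries. Every comparison below was made within MGJ, between sets of cells from the same suspension. The cells are not replicates, so no test was run, and each interval covers counting error at 95% only.

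Fibroblasts make the collagen matrix of repair tissue and can also send immune signals. Cxcl5 encodes a CXC chemokine that attracts neutrophils through the receptor Cxcr2. Ptx3 encodes long pentraxin 3, a soluble pattern-recognition protein that also builds into hyaluronan-rich matrix. Ereg encodes epiregulin, a ligand of the EGF receptor. Sfrp1 encodes a secreted Wnt antagonist and Cxcl14 a chemokine of epithelial and stromal tissue. On GRCm38, Cxcl5 lies on chromosome 5 from 90759360 to 90761624 and Ereg on the same chromosome from 91074622 to 91093646. Ptx3 lies on chromosome 3 from 66219910 to 66225805, Sfrp1 on chromosome 8 from 23411502 to 23449632 and Cxcl14 on chromosome 13 from 56288643 to 56296551.

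The 431 inflammatory fibroblasts made up 52.0% (exact Clopper-Pearson interval 48.5 to 55.4) of the 829 MGJ cells that passed every gate other than the one on Cxcl5, Ptx3 and Ereg. They were 3.20% (2.91 to 3.51) of the 13460 cells kept by the limits on genes and mitochondrial UMIs. The other 398 fibroblasts, with a sum under 5, served as the first comparison set. The second was 441 tendon-like fibroblasts, which passed the same gates but held at least 5 UMIs of Tnmd and Thbs4 per 10000. Median depth was 18186 UMIs in inflammatory, 13750.5 in other and 16268 in tendon-like fibroblasts, so the inflammatory cells were the deepest of the 3 sets. Median mitochondrial shares were 4.48%, 4.64% and 4.52%.

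The sum that defined the cells had no gap at its limit. Among the 829 fibroblasts, 25 had a sum from 4 to under 5 and 18 from 5 to under 6, while 167 had no UMI of the 3 genes. The sum reached 277 per 10000 in the highest cell. Its median was 36.7, and 401 of 431 members held at least 10 UMIs of the 3 genes. The 33 cells just inside the limit, with sums from 5 to under 7, had Saa3 at 2327 CPM (UMIs summed over the cells and scaled to a total of 1000000; 2207 to 2453) and Sfrp1 at 309.8 CPM (267 to 358). The 49 cells just outside, from 3 to under 5, had Saa3 at 597 CPM (548 to 649) and Sfrp1 at 218 CPM (189 to 250). Il6 was 82.0 CPM (60.7 to 108) just inside and 88.3 CPM (70.1 to 109.7) just outside, so Il6 was alike on both sides within counting error. The spread over the 33 and the 49 cells was not measured. Saa3 was uneven, with highest cells of 1067 per 10000 in members and 778 in other fibroblasts. Whether a few cells carried its difference at the limit was not tested.

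The 3 selecting genes overlapped in most members. A UMI of Cxcl5, Ptx3 and Ereg together was present in 236 cells, 54.8% of the members. Cxcl5 with Ptx3 but no Ereg was found in 90 cells, Cxcl5 with Ereg in 39 and Ptx3 with Ereg in 11. Cxcl5 was the lone gene in 22 cells, Ptx3 in 30 and Ereg in 3. These numbers describe the choice of cells. Summed levels were 3346 CPM for Cxcl5, 1321 CPM for Ptx3 and 604 CPM for Ereg in the members. In other fibroblasts they were 21.7, 74.6 and 25.6 CPM in the same order, and in tendon-like fibroblasts 1235, 718 and 158 CPM. Tendon-like cells were not selected on the 3 genes, and 162 of 441 (36.7%, 32.2 to 41.4) passed the same limit of 5. The limit was also passed by 202 of 2462 chondrocytes (8.20%, 7.15 to 9.36), 6 of 122 osteoblasts (4.92%, 1.83 to 10.4) and 8 of 231 endothelial cells (3.46%, 1.51 to 6.71). It was passed by 3 of 751 C1q macrophages and 17 of 2252 neutrophils.

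Sfrp1 and Cxcl14, the markers outside the rule, were highest in the inflammatory fibroblasts among the 8 cell sets, each summed whole. In the tendon-like cells that also had a 3-gene sum of at least 5, Sfrp1 was 615 CPM and Cxcl14 719 CPM, the latter above the members. Sfrp1 was 612 CPM (595 to 629) in the members, 308 CPM in tendon-like, 112 CPM in other fibroblasts and at most 20.5 CPM in the other 5 sets. Cxcl14 was 539 CPM (523 to 555) in the members, 337 CPM in tendon-like, 54.5 CPM in other fibroblasts and at most 26.4 CPM elsewhere. Per cell, the median of Sfrp1 was 3.39 per 10000 UMIs in the members, with a 95th percentile of 21.1. The median of Cxcl14 was 1.59 with a 95th percentile of 26.8, and 150 members held no UMI of it. After each cell was thinned to 2000 UMIs, Sfrp1 was detected in 51.7% of members, 15.1% of other and 27.2% of tendon-like fibroblasts, against 80.7%, 38.7% and 51.9% before thinning. Its thinned share was 0.178% in neutrophils and 0.399% in C1q macrophages, cells with median depths of 3309.5 and 9378 UMIs that give the level of free RNA. Cxcl14 was detected after thinning in 39.9% of members, 7.29% of other and 17.7% of tendon-like fibroblasts, and in 0.4% of neutrophils. The fibroblast genes Pdgfra and Prrx1 were present at 114 and 224 CPM in the members. After thinning, Pdgfra was detected in 19.3% of members, 15.8% of other and 16.6% of tendon-like fibroblasts. Its thinned share was 0.311% in neutrophils and 0.399% in C1q macrophages.

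**Figure D1:**
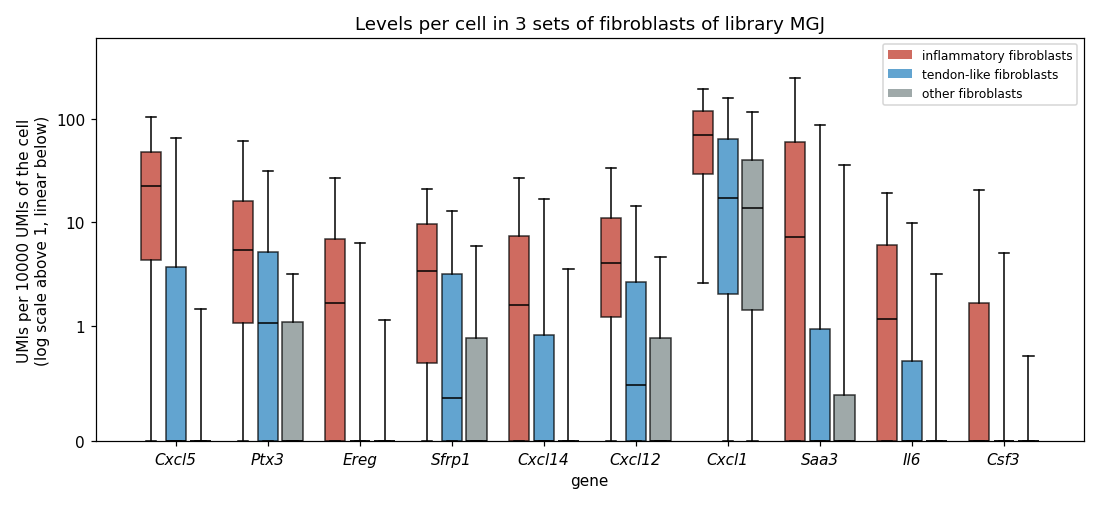
Per-cell levels of 10 genes in the 3 fibroblast sets of library MGJ, in UMIs per 10000 UMIs of the cell (log scale above 1, linear below); boxes span the 25th to 75th percentile, lines are medians and whiskers the 5th and 95th percentile. Cxcl5, Ptx3 and Ereg chose the members, while the boxes of Sfrp1, Cxcl12 and Cxcl1 also sit highest in the inflammatory fibroblasts.

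Against other fibroblasts, the chemokine and acute-phase lists had more higher than lower genes, and Csf3 had the largest ratio. Of 10071 genes with at least 50 UMIs in both sets together, rule genes left out, 370 (3.67%) were at least 2-fold higher in the inflammatory fibroblasts and 651 (6.46%) at least 2-fold lower. The median ratio over these genes was 0.866, a log2 ratio of -0.21, so a typical gene was slightly lower in the members. With every ratio divided by that median, 492 genes were higher and 409 lower, and the share of higher calls moved from 36.2% to 54.6%. Since the members were cut from the same fibroblasts by correlated genes, these counts are descriptions of the choice.

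Csf3, the neutrophil growth factor G-CSF, had the largest ratio of the genes with at least 100 UMIs, 363.6 CPM in members and 15.7 CPM in other fibroblasts, a ratio of 23.1 (18.8 to 28.6). It was patchy, with UMIs in 176 of 431 members. After thinning it was found in 19.7% of members (16.1 to 23.8) and 22.2% of neutrophils (20.5 to 24.0), so its share of cells did not exceed that in neutrophils. Its level was 720.5 CPM in endothelial cells, above that of the members. The endothelial set had no gate on immune genes, and neutrophil markers summed to 7262 CPM in it against 582 CPM in members. Their part in the endothelial level of Csf3 was not tested. The next in order were Draxin, an axon guidance factor, at 18.7 against 1.15 CPM, and Gzmb, a serine protease gene, at 37.8 against 2.46 CPM. Mylpf, a skeletal muscle myosin gene, also ranked here at 17.5 against 1.31 CPM, but 95.7% of its UMIs came from 1 cell, and at a stricter sum of 10 its ratio was 0.445. The first 20 further held Depdc5, Ifi202b, Egfl6, Cacna1d, Areg, Cxcl14, Mmp10, Mmp3, Cxcl12, Serpina3n, Chl1, Serpinb2, C3, Gm12840, Saa3 and Olfr810. Their ratios ran from 8.54 for Olfr810 to 13.1 for Depdc5. Serpinb2 came from 36 members.

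CXC chemokines were mostly higher. Of 10 measured members of the list outside the rule, 7 were at least 2-fold higher and none 2-fold lower, with a median ratio of 2.57 against 0.866 over all genes tested. Cxcl12, the stromal ligand of Cxcr4, was 786 CPM against 82.3 CPM, a ratio of 9.54 (8.71 to 10.5). Cxcl1, another ligand of Cxcr2, was 8366 against 3100 CPM, and Cxcl2, of the same receptor, 5698 against 2331 CPM. Cxcl1 was broad, with a median of 68.8 per 10000 in members and 13.6 in other fibroblasts, and UMIs in 426 of 431 members. Cxcl16 was 161 against 57.4 CPM. Cxcl13 had 51 UMIs in members and none in other fibroblasts, at least 13.0-fold higher against a floor of 3 counts over the set.

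Promoters were read from the RefSeq table (GRCm38.p6), which has no entry for Cxcl5, Ereg, Sfrp1 or Csf3. The stretches below each show 100 bases from upstream of Cxcl1, Cxcl2 and Il6, cut around the letters in capitals and ending short of the start. In that order they lie on the plus strand of chromosome 5, at chr5:90891114-90891213, chr5:90903742-90903841 and chr5:30013010-30013109. They are shown because these genes were among those higher in the members and their windows hold a form of the NF-kappaB motif, in capitals (GGGA, any 2 bases, TTCC). Ptx3, Cxcl14, Saa3, Cxcl12, C3 and Mmp3 also have an entry, and no stretch of theirs is shown. The printed stretches were picked for the motif and do not stand for the higher genes as a set.
Cxcl1: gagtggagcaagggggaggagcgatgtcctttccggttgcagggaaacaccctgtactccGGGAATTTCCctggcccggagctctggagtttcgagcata
Cxcl2: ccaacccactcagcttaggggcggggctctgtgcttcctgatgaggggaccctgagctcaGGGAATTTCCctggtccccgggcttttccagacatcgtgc
Il6: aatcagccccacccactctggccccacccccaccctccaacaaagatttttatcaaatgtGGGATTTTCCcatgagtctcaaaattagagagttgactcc
The match begins 71 bases before the start of Cxcl1, 97 before that of Cxcl2 and 44 before that of Il6. Both strands were searched over the 300 bases from 250 before to 50 after the start. Of all 27025 genes with a promoter in the table, 441 (1.63%) held the motif, as did 137 of 8017 genes tested here (1.71%), 7 of 276 higher genes (2.54%) and 6 of 511 lower genes (1.17%). The AP-1 motif TGANTCA was held by 40 of 276 higher genes (14.5%), 37 of 511 lower genes (7.24%) and 506 of 8017 tested genes (6.31%). A match is a run of letters and not evidence of binding.

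Of the CC and CX3C chemokines, 6 of 14 measured were at least 2-fold higher and none 2-fold lower, with a median ratio of 1.59. Ccl2, the main monocyte chemokine, was 3725 against 1628 CPM, a ratio of 2.29 (2.24 to 2.34). Ccl7, which also draws monocytes, was 1610 against 486 CPM. Ccl11, or eotaxin, was 50.7 against 15.3 CPM and came from 45 members. Its ratio of 3.33 was 1.69 as a mean of CPM over cells, 1.35 against the other fibroblasts with no UMI of the 3 rule genes and 13.9 without cells of Rgs5 or Acan. Of the gene models named Ccl21a, 1 passed the limit with 96.6% of its UMIs in members in 1 cell.

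Of 21 genes of the interleukin-1 and interleukin-6 families and colony-stimulating factors, 8 were at least 2-fold higher and none lower, with a median ratio of 1.76. Il6 was 479 CPM in members and 57.2 CPM in other fibroblasts, a ratio of 8.37 (7.5 to 9.37), and was found in 284 members. Il33, an alarmin, was 75.3 against 11.3 CPM in 99 members. Its receptor Il1rl1 was 666 against 234 CPM and the interleukin-1 receptor Il1r1 169 against 52.5 CPM. Csf2, the growth factor GM-CSF, was 60.9 against 12 CPM in 50 members.

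Of the acute-phase list, 7 of 11 measured genes were at least 2-fold higher and 1 was lower, with a median ratio of 3.87. Saa3, serum amyloid A3, was 5355 CPM (5304 to 5406) in members, 627 CPM in other and 1441 CPM in tendon-like fibroblasts. Its spread over members was wide, with a median of 7.14 per 10000, a 95th percentile of 244 and 115 members at 0. Haptoglobin, Hp, was 2912 against 597 CPM, and the complement gene C3 713 against 81.8 CPM. After thinning, C3 was found in 49.9% of members, but also in 41.8% of neutrophils and 40.7% of C1q macrophages, and the part of free RNA in its share was not tested. Serpina3n, a protease inhibitor, was 143 against 15.4 CPM.

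EGF receptor ligands and the hyaluronan list were mixed. Of 8 measured genes of the EGF list, 3 were at least 2-fold higher and 1 lower. Areg, amphiregulin, was 156 against 14.6 CPM, a ratio of 10.7 (8.60 to 13.4), in 131 members. The receptor Egfr was 78.4 against 34.9 CPM, and its ratio was 1.53 after thinning. Of 10 genes of the hyaluronan list, 3 were higher and 1 lower. The higher ones included Cemip, a hyaluronan-degrading protein, at 131 against 24.9 CPM and the hyaluronan synthase Has2 at 109 against 45.6 CPM, a ratio that was 1.71 after thinning. Tnfaip6, which links pentraxin 3 to hyaluronan, was 1106 against 680 CPM, a ratio of 1.63 (1.57 to 1.69) that missed the 2-fold limit. Of 19 NF-kappaB response genes, 4 were higher and none lower, namely Sod2 at 623 against 180 CPM, Vcam1 at 407 against 151 CPM, Tnfaip3 at 191 against 90.0 CPM and Zc3h12a at 53.7 against 25.3 CPM.

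**Figure D2:**
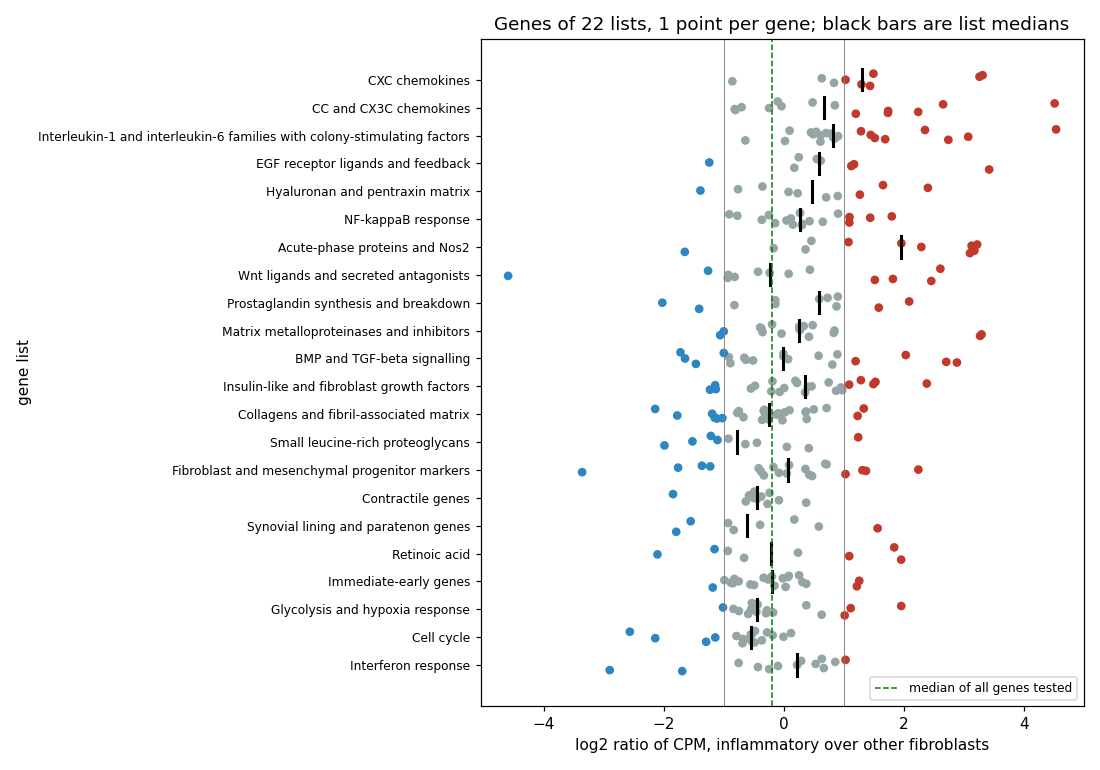
Log2 ratio of CPM of inflammatory over other fibroblasts (horizontal axis) for each measured gene of the lists other than the cell type marker lists, 1 point per gene; points at 2-fold or beyond are coloured, black bars are list medians and the dashed line is the median of all genes tested at -0.21. Of the lists drawn, the acute-phase genes and CXC chemokines have the medians furthest right (3.87 and 2.57 over all measured genes) and the small leucine-rich proteoglycans the one furthest left (0.583); genes without a UMI in other fibroblasts are left out of points and bars.

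Secreted regulators of Wnt and BMP signalling were mixed. Of 13 genes of the Wnt list, 4 were at least 2-fold higher and 2 lower, with a median ratio of 0.847, near that of all genes. Besides Sfrp1, Rspo3, an enhancer of Wnt signalling, was 44.8 against 7.38 CPM, Sfrp2 218 against 76.6 CPM and Sfrp4 105 against 29.9 CPM, the last with 20.8% of its UMIs in members in 1 cell. The Wnt inhibitor Wif1 was 1.0 against 24.3 CPM. Of 19 genes of BMP and TGF-beta signalling, 4 were higher and 4 lower, with a median ratio of 0.992. The BMP antagonist Grem1 was 106 against 14.4 CPM, and the activin antagonist Fst 306 against 75.1 CPM. Bmp2 was 41.3 against 114 CPM, Tgfb3 12.8 against 40.2 CPM and Ccn2, a gene of matrix and tension responses, 117 against 386 CPM. Of the growth factor list, 5 of 23 were higher, among them the neurotrophic factor Gdnf at 63.0 against 12.1 CPM, and 3 were lower, among them Igfbp5 at 359 against 845 CPM (0.52 as a ratio to the other fibroblasts with no UMI of the 3 rule genes).

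Of 17 metalloproteinase and inhibitor genes, 2 were higher and 2 lower, with a median ratio of 1.19. Mmp3, stromelysin 1, was 829 against 86.3 CPM, and Mmp10, stromelysin 2, 94.5 against 9.68 CPM in 100 members. Of 11 genes of prostaglandin synthesis and breakdown, 2 were likewise higher and 2 lower, with a median ratio of 1.5. Ptgs2, the inducible prostaglandin synthase COX-2, was 2027 against 680 CPM, but was found after thinning in 53.8% of C1q macrophages as well as in 69.8% of members. Hpgd, which degrades prostaglandins, was 31.3 against 7.38 CPM, and Ptgis, prostacyclin synthase, was 7.28 against 29.7 CPM.

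Structural matrix genes were lower in part, as were 651 genes against 370 higher over all genes tested. Of 29 collagen and fibril genes, 2 were at least 2-fold higher and 6 lower, with a median ratio of 0.836, close to the 0.866 of all genes. Col6a1 was 1386 against 3009 CPM, Col6a3 1019 against 2271 CPM, fibronectin Fn1 3096 against 7104 CPM and elastin Eln 18.1 against 80.0 CPM. Col14a1 was higher at 274 against 117 CPM. Of 10 small leucine-rich proteoglycans, 4 were lower and 1 higher, with a median ratio of 0.583. Fmod, fibromodulin, was 214 against 851 CPM, and Aspn, asporin, 717 against 1546 CPM. Divided by the median ratio of all genes, Col6a1 (0.532), Col6a3 (0.518), Fn1 (0.503) and Aspn (0.535) no longer passed the 2-fold limit. Among 20 fibroblast and progenitor markers, 4 were higher and 4 lower. Ly6a, or Sca-1, was 465 against 229 CPM, Pi16 50.2 against 10.7 CPM, Dpt 160 against 65.0 CPM, and Twist2 33.8 against 13.1 CPM. Without cells of Rgs5 or Acan, the ratios of Ly6a and Dpt were 1.48 and 1.97. S100a4 was 347 against 1178 CPM and Gli1, a hedgehog target, 1.0 against 10.3 CPM.

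The genes furthest lower were in part genes of mural cells. They were Higd1b, at 0.377 against 24.9 CPM, Mt3, Folr2, Wif1, Ano1, Ppp1r14a, Tspan2, Jam2, Fam180a and Slc40a1. The ratio of Mt3 was 0.0221, and 0.563 with mitochondrial UMIs limited to 10%. Of the endothelial and mural list, 6 of 7 measured genes were at least 2-fold lower, including Rgs5, a pericyte marker, at 52.2 against 366 CPM. Of 12 chondrocyte markers, 8 were lower, including Acan, aggrecan, at 175 against 994 CPM. Cells with Rgs5 of at least 5 or Acan of at least 10 per 10000 numbered 24 of 431 members and 163 of 398 other fibroblasts. Without all of them, 308 genes were higher and 520 lower, and the ratio of Rgs5 was 1.13. Chondrocyte markers, with the rule gene Col2a1 among them, summed to a median of 13.1 per 10000 in members and 27.0 in other fibroblasts. The 5th to 95th percentiles were 6.26 to 38.7 and 6.48 to 141. The part of chondrocyte markers in the lower genes was otherwise not tested.

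Markers of immune cells were low in the members, with medians close to those of other fibroblasts. The neutrophil, macrophage and osteoblast sums below include rule genes that the gates held low in both sets. Low and similar sums therefore follow in part from the choice of cells. Neutrophil markers summed to a median of 3.43 per 10000 in members, from 1.07 to 20.8 between the 5th and 95th percentile, and to 3.02 in other fibroblasts, from 0.732 to 20.3. Macrophage and leukocyte markers summed to 0.675 in members, up to 13.8, and to 0.752 in other fibroblasts, up to 24.9. Of 10 measured macrophage and leukocyte genes outside the rule, none passed the 2-fold limit in either direction. Of 5 neutrophil genes, 1 was higher. Osteoblast markers summed to 11.3 in members, up to 91.7, and 16.1 in other fibroblasts, up to 209.7. The median of the erythroid and muscle list was 0 in both sets, and Hbb-bs had 92.5% of its UMIs in members in 1 cell.

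Against tendon-like fibroblasts fewer genes passed the 2-fold limit, but this set was not cut on the 3-gene sum. Of its 441 cells, 162 had a sum of at least 5, so the counts are not directly comparable with those against other fibroblasts. Of 10124 genes tested, 246 (2.43%) were at least 2-fold higher in the inflammatory fibroblasts and 334 (3.3%) at least 2-fold lower, with a median ratio of 0.969. The higher genes of largest ratio were led by Hbb-bt, Hba-a1, Mylpf, Hbb-bs and Hba-a2, each with at least 92.2% of its UMIs in members in 1 cell. Mmp10, Serpinb2 and Areg came next, with Mmp10 at 94.5 against 9.98 CPM (ratio 9.47, 7.48 to 12.2) and Areg at 156 against 23.4 CPM. Mmp13, collagenase 3, was 2095 against 615 CPM and Grem1 106 against 23.9 CPM. Ccl2 was close to level at 3725 against 3273 CPM, and Pi16 was 50.2 against 54.8 CPM. Of 10 CXC chemokines, 4 were at least 2-fold higher and 1 lower, with a median ratio of 1.72. Of 14 CC and CX3C chemokines, 3 were higher and 2 lower (median 0.994). Of 21 interleukin and colony-stimulating factor genes, 2 were higher and none lower (median 1.42). Of 19 NF-kappaB response genes, 1 was higher and none lower (median 1.15). Of 10 acute-phase genes, 7 were higher and none lower (median 2.5).

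The lowest ratio belonged to Kera, keratocan, which was 0.502 CPM in members and 156 CPM in tendon-like cells, and Spink8, Cilp2, Angptl7 and Zfp185 followed. Cells of the second set were chosen on Tnmd and Thbs4, so differences in tendon genes follow in part from the choice. Of 8 measured tendon markers outside the rule, 5 were at least 2-fold lower and none higher, and of 8 synovial lining and paratenon genes 3 were lower and none higher. Of 11 proteoglycan genes, 7 were at least 2-fold lower, including Fmod at 214 against 1319 CPM. The contractile list differed here, with 6 of 11 genes at least 2-fold higher and none lower, and a median ratio of 2.18. Acta2, smooth muscle actin, was 776 against 314 CPM and Actg2 122 against 38.7 CPM. Against other fibroblasts the contractile list had a median ratio of 0.731, with Acta2 at 776 against 939 CPM.

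**Figure D3:**
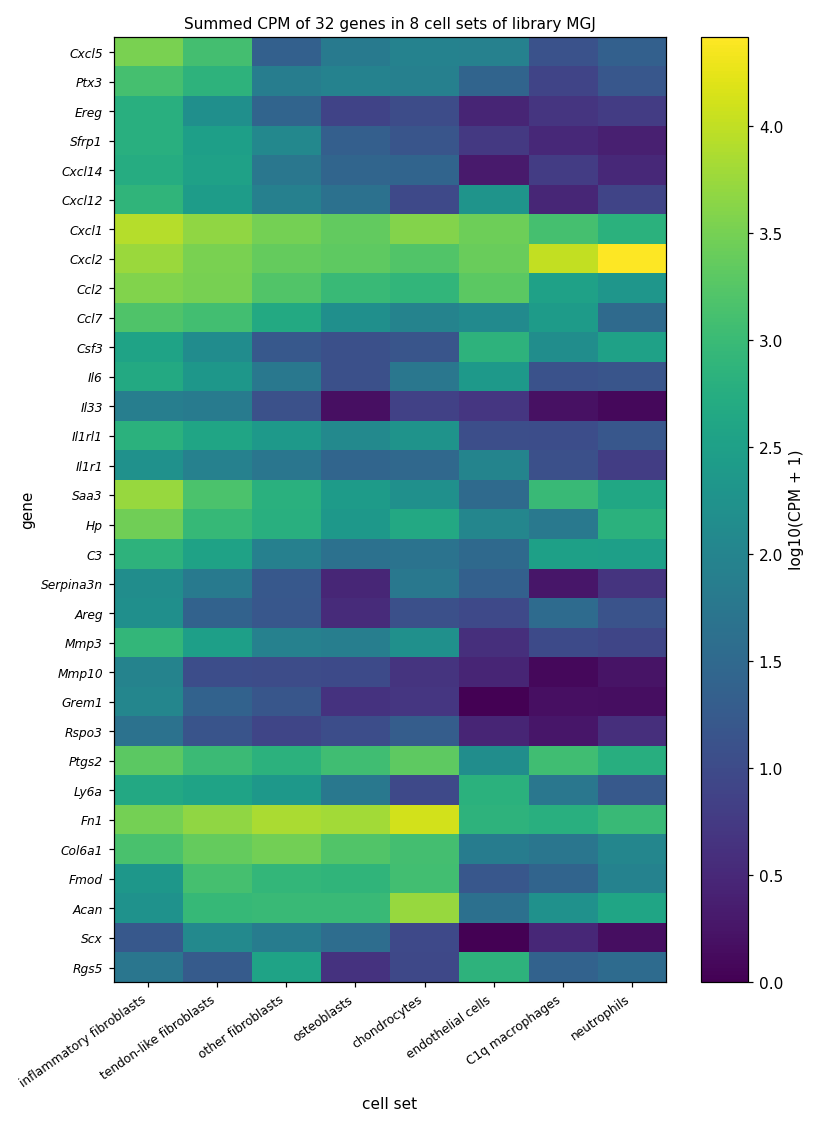
Summed levels of selected genes (rows) in 8 cell sets of library MGJ (columns), as log10 of CPM plus 1. Sfrp1 and Cxcl14 are highest in the inflammatory fibroblasts at 612 and 539 CPM, while Ptgs2 reaches 2089 CPM in chondrocytes. Csf3 is highest in endothelial cells, a set not gated on immune genes, at 720.5 CPM.

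The same sum split the tendon-like fibroblasts, which share no cell with the members. The 162 cells with a sum of at least 5 were compared with the 279 cells under 5, as a side-by-side description. Of 8433 genes tested, 351 (4.16%) were at least 2-fold higher and 455 (5.4%) at least 2-fold lower in the cells with the higher sum. Of the 370 genes higher in the members than in other fibroblasts, 277 could be tested in the tendon-like split and 210 of these (75.8%) were at least 2-fold higher there too. Of the 651 lower genes, 401 could be tested and 211 (52.6%) were at least 2-fold lower. Both contrasts were cut on the same sum in the same library, so shared genes follow in part from the choice of cells. Csf3 was 311 against 16.1 CPM, Il6 487 against 26.3 CPM, Cxcl14 719 against 58.3 CPM and C3 745 against 71.3 CPM between the 2 parts of the tendon-like set. Ccl8 was 7.17 against 58.1 CPM there but 10.8 against 2.30 CPM between members and other fibroblasts. The cells with the higher sum were also deeper, with a median of 18801 against 14596 UMIs.

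**Figure D4:**
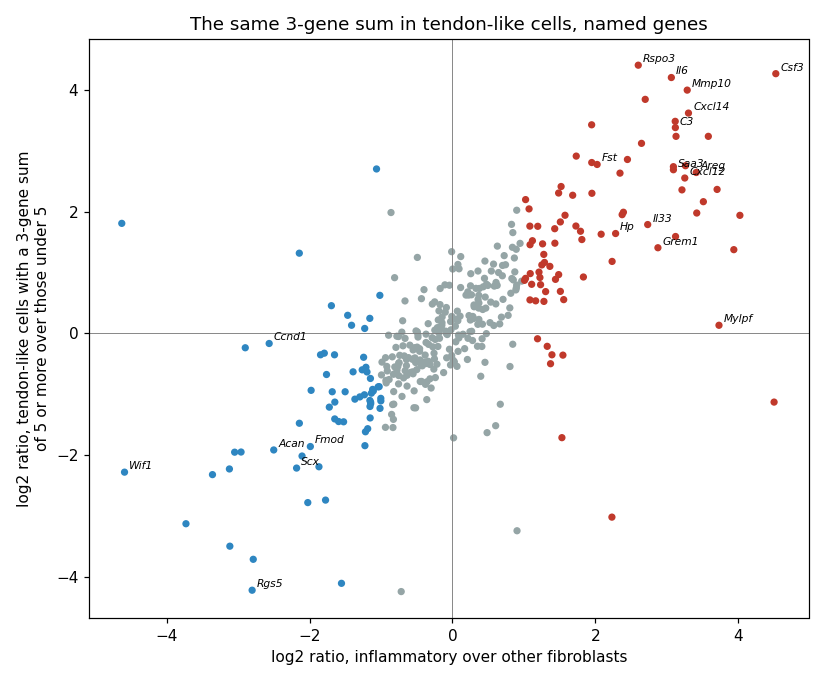
Log2 ratio of inflammatory over other fibroblasts (horizontal axis) and of tendon-like cells with a 3-gene sum of at least 5 over those under 5 (vertical axis), 1 point per named gene; points called at least 2-fold higher or lower on the horizontal axis are coloured. Most coloured points lie on the same side of 0 on both axes, with Csf3 and Rspo3 near the top and Mylpf, whose members' UMIs come 95.7% from 1 cell, near 0 on the vertical axis. Both axes split cells on the same 3-gene sum.

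The members were not uniform. By UMIs, 269 cells (62.4%) had Cxcl5 as the leading gene of the 3, 116 (26.9%) Ptx3 and 39 (9.05%) Ereg, with 7 ties. Their median depths were 18854, 16393 and 18689 UMIs. Saa3 was 7052 CPM in cells led by Cxcl5, 2995 CPM in those led by Ereg and 1825 CPM in those led by Ptx3. Hp followed the same order at 3474, 2809 and 1473 CPM. Pi16, Dpt and Igf1 were highest in cells led by Ptx3. Pi16 was 145 CPM in cells led by Ptx3 against 19.1 and 21.5 CPM in those led by Cxcl5 and Ereg, and Dpt 344 CPM against 111 and 35 CPM. Igf1, insulin-like growth factor 1, was 1312 CPM in cells led by Ptx3, 387 CPM with Cxcl5 and 194 CPM with Ereg. Grem1 was 227 CPM in cells led by Ereg, 119 CPM with Cxcl5 and 27.9 CPM with Ptx3. For these 6 genes the counting intervals did not overlap, except those of Pi16 in cells led by Cxcl5 and Ereg. Such intervals leave out the spread over cells, which was not measured within these groups.

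Correlations over the 431 cells, which share 1 library and whose rates share the cell's depth as denominator, are given as descriptions. Spearman's rho was 0.671 between Cxcl12 and C3, 0.632 between Cxcl14 and Cxcl12, 0.560 between Sfrp1 and Cxcl12 and 0.510 between Ptx3 and Sfrp1. Cxcl5 with Il6 gave 0.412 and Csf3 with Il6 0.403. Ptx3 and Mmp10 gave -0.276.

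Leiden clustering on genes other than the 18 rule genes gave 6 sub-clusters of 158, 109, 96, 38, 20 and 10 cells at a resolution of 0.5, and 11 at a resolution of 1, so the number depends on the setting. They are described by their leading genes and get no names. In the first, Pi16 was 143 CPM, Clec3b 138 CPM, C3 1703 CPM, Dpt 380 CPM and Gzmb 109 CPM, all at least 6.89 times the level in the remaining members. It also held the highest Ptx3 (2988 CPM), Cxcl12 (1734 CPM), Sfrp1 (1183 CPM) and Csf3 (703 CPM), while Acta2 was 19.0 CPM. In the second, the contractile genes Cnn1, Actg2, Tagln and Acta2 led with Grem1, and Acta2 was 1686 CPM. It held the highest Saa3 at 10132 CPM and Mmp10 at 194 CPM. In the third, the cartilage and tendon matrix genes Acan (518 CPM), Fmod (574 CPM) and the secreted factor C1qtnf3 (1905 CPM) led, and Csf3 was 31.6 CPM. In the fourth, the cell division genes Ube2c (346 CPM), Birc5 (262 CPM) and Top2a (248 CPM) led, with a median depth of 26969 UMIs. Cxcl5 was present in all 6, from 1999 to 4141 CPM, which follows in part from its use in choosing the cells.

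The last 2 sub-clusters went against the name of the cells. In the fifth, of 20 cells, the leading genes were the myeloid genes Ctss (636 CPM), Lyz2 (2561 CPM), Apoe and Il1b, and 12 of the 20 had a Scrublet doublet score above 0.25, against 2 of the other 411. In the sixth, of 10 cells, Rgs5 led at 2098 CPM with the vessel wall collagens Col4a1 (2620 CPM) and Col4a2 (1122 CPM), while Sfrp1 had no UMI and Ptx3 was 12.1 CPM. Il6 was 2128 CPM, Hp 9556 CPM and Acta2 2710 CPM in those 10 cells. Leaving out both sub-clusters gave 376 higher and 747 lower genes against other fibroblasts.

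**Figure D5:**
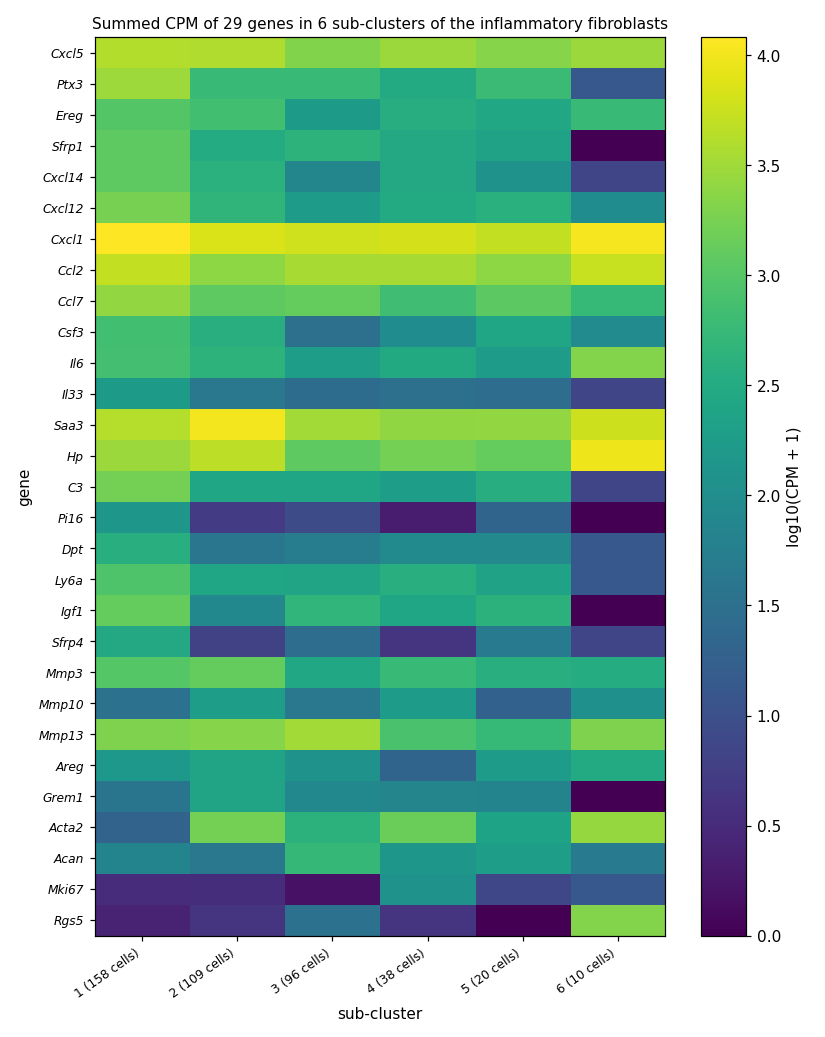
Summed levels of selected genes (rows) in the 6 sub-clusters of the inflammatory fibroblasts (columns, with their number of cells), as log10 of CPM plus 1. Cxcl5, a gene used to choose the cells, and Cxcl1 are present in each. Pi16, Sfrp4 and C3 are highest in the first (C3 at 1703 CPM) and Rgs5 reaches 2098 CPM in the sixth.

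In library MGJ2, 8 cells passed the fibroblast gates and 1 had a sum of at least 5, from 17 UMIs of Ptx3 and none of Cxcl5 or Ereg among 26082 UMIs. All 8 cells together held 19 UMIs of Ptx3, 2 of Sfrp1 and none of Cxcl14, Saa3 or Csf3. With 8 fibroblasts, the share of 12.5% has an exact interval of 0.316 to 52.7%. The share was not compared with that of MGJ by a test.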

How the data were processed

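Callus was digested with enzymes and single cells were captured with the 10x Chromium 3' v3 kit. Per the file headers, the authors made the matrices with Cell Ranger 4.0.0; the submitters' processing notes name Seurat and build GRCm38. The deposited values are raw UMI counts per gene and cell, with no normalization. The deposited barcodes had at least 500 UMIs; doublet removal before deposit is not given in the sources used here.

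Cells were gated on UMIs per 10000 as given in the report. The members and the gene lists were chosen with earlier results of these data known. UMIs were summed over each set and scaled to CPM. Intervals are exact Poisson for levels, exact conditional binomial for ratios and Clopper-Pearson for shares, at 95%, and cover counting error only. A gene needed 50 UMIs in both sets together, with the 18 rule genes left out, and was called at a ratio of 2 or its inverse. With 1 library of unassigned day there is no test and no p-value. Named genes were the markers, genes of 29 lists, and, at 100 UMIs or more, the 20 highest and 10 lowest ratios to other fibroblasts and the 8 highest and 5 lowest to tendon-like fibroblasts; sub-cluster genes were named after their values were seen. Comparison sets needed 2000 UMIs and, per 10000, at least 20 of the osteoblast genes, 200 of Col2a1 (chondrocytes), 20 of C1qa, C1qb and C1qc (macrophages), 200 of S100a8 and S100a9 (neutrophils) or 5 of Pecam1 and Cdh5 (endothelial cells); the last 3 also needed under 50 of Col1a1 and Col3a1.

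Scrublet (scanpy 1.11.5) called 0 of 13460 cells at its own threshold, so it did not work as a doublet caller; a score above 0.25 was added after seeing the data and marked 14 members. Sub-clusters used 2000 variable genes, 30 components, 15 neighbours and leidenalg 0.10.2. The calling code was tested on simulated data. Alternatives changed the gates, gene filter, weights of cells, scaling, depth and comparison cells. Python 3.11.15, numpy 2.4.6 and scipy 1.17.1 were used.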

Additional observations from a re-analysis of the deposited data

Results flagged for a closer look

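The 835 cell barcodes of library MGJ removed for few genes or high mitochondrial UMIs, which no comparison used, held Cxcl5 at 84.7 CPM (70.3 to 101), Ptx3 at 56.9 CPM (45.3 to 70.6) and Ereg at 6.94 CPM (3.33 to 12.8). These values are above the level of 3 counts that a count of 0 allows, 2.08 CPM, and below the 344, 176 and 57.9 CPM of the kept cells. Library MGJ2, of which only counts are given in the report, held Ptx3 at 2.95 CPM (2.53 to 3.41), Cxcl5 at 0.115 CPM and Ereg at 0.165 CPM over its 7806 kept cells, against a floor of 0.0494 CPM.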

How the results depend on the processing

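No paired analysis was possible because the labels put neither library in a group. The number of inflammatory fibroblasts in MGJ ran from 363 to 431 over the alternatives to the gates. Their share of fibroblasts was 43.8% with a sum of 10 in place of 5, and between 51.7% and 55.2% otherwise. Gene counts moved with the gene filter and with thinning. Against other fibroblasts, 240 genes were higher at 200 UMIs, and 1104 and 188 lower at 20 and 200 UMIs. Against tendon-like fibroblasts, 385 and 126 were higher and 619 and 119 lower at the same filters. With each cell thinned to 2000 UMIs, 157 were higher and 191 lower than other fibroblasts, and 125 and 109 than tendon-like ones, with fewer genes reaching 50 UMIs. With ratios divided by their median, 409 were lower than in other fibroblasts. Without cells of Rgs5 or Acan, an alternative chosen after seeing the data, 130 were higher and 201 lower than tendon-like fibroblasts. Of 131 named ratios, 127 passed 2-fold, and 1954 of their 2016 alternative values stayed past it, while 5 reversed. The gene filters of 20 and 200 UMIs and the removal of Scrublet calls, which marked 0 cells, could not change a ratio. Their values are counted in the 2016, so the tally overstates how far the ratios were tried. With a sum of 10, Mylpf was 0.445 (other) and 0.494 (tendon-like), Hba-a2 0.842 and Hbb-bs 0.959 (tendon-like), since the cell that carried most UMIs of each had a sum under 10; Rgs5 was 1.13 without its own cells. With 1 library and no replicate, no value carries biological error, and a gene under 50 UMIs was not assessed.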
